A study of Mus musculus with 2 samples.

Results

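Neutrophils that carried transcripts of both an earlier and a later step of their maturation were examined in droplet-based 3′ single-cell RNA sequencing of mouse bone marrow. A barcode, the tag that marks the RNA of 1 droplet, was kept when it had 200 to 9000 detected genes, at most 30% mitochondrial counts and at least 1000 unique molecular identifiers (UMIs, which count captured RNA molecules). A kept barcode was called a passing neutrophil when the secondary granule genes *Camp*, *Ngp* and *Ltf* together made up at least 4% of its UMIs and *Retnlg*, a gene of late neutrophils, at least 0.5%. This rule found 1262 of 14142 kept barcodes, 513 of 8795 in the control (Ctrl) library and 749 of 5347 in the Map4k4-cKO (cKO) library. The 4 genes of the rule are not findings here, and since each condition had 1 library, no difference between libraries was tested and no p-value is given.

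The study asked how loss of *Map4k4*, which encodes a serine/threonine protein kinase, affects neutrophil differentiation. The cKO mice carried floxed *Map4k4* and Mx1-Cre (Mx1-Cre Map4k4 f/f), and the methods write the control littermates as Mx1-Cre Map4k4-/-, a notation they do not explain. Both groups, per the methods, thus carried Mx1-Cre on a C57BL/6 background. The labels give an age of 13 to 14 weeks. Mx1-Cre is switched on by interferon, here through injected poly I:C, in blood-forming cells and in other cells that respond to interferon, so the deletion is not limited to neutrophils. The methods describe the injections for the Mx1-Cre Map4k4 f/f mice and do not say whether the controls received them. In each library, 2 parts of bead-enriched c-Kit-positive cells were mixed with 3 parts of whole bone marrow after red cell lysis, so the proportion of any cell type was partly set by the mixing. How many animals a library held is not given in the sources used here.

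Neutrophils mature in the bone marrow and fill their granules in order. Promyelocytes make the proteins of primary granules, such as myeloperoxidase and elastase. Later precursors make the secondary granule proteins cathelicidin (*Camp*), neutrophilic granule protein (*Ngp*) and lactoferrin (*Ltf*), and cells that have stopped dividing make the contents of gelatinase granules. C/EBPε, encoded by *Cebpe*, is the transcription factor known for secondary granule genes, and the receptors CXCR4 and CXCR2 are known for holding neutrophils in the marrow and for their release.

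*Map4k4* (ENSMUSG00000026074, chr1:39900913-40026310 of GRCm38) had 484 UMIs in passing neutrophils of the Ctrl library and 880 in those of the cKO library. These were 239 and 162 CPM, which here means UMIs of a gene scaled by the total UMIs of the barcodes of a group, so that all genes sum to 1000000, with the 4 rule genes left out of the total. The log2 ratio of cKO over Ctrl was -0.56 (95% interval -0.72 to -0.40, exact binomial, which covers counting error only). Under median-of-ratios scaling, which sets the middle gene ratio to the same level in both libraries, it was -0.14. *Map4k4* RNA was thus still counted in the cKO library. The study itself reported, from RT-PCR, that blood-forming stem and progenitor cells lost the *Map4k4* transcript after poly I:C. Which exon was floxed is not given in the sources used here, and tags from the 3′ end may lie outside the deleted part, so these counts do not check the label.

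The genes of the rule lie on mouse chromosomes 9 and 16. *Camp* (ENSMUSG00000038357) spans chr9:109847379-109849617, *Ngp* (ENSMUSG00000032484) chr9:110419747-110423012, *Ltf* (ENSMUSG00000032496) chr9:111019271-111042767 and *Retnlg* (ENSMUSG00000022651), which encodes a resistin-like secreted protein, chr16:48872621-48874496. *AA467197* (ENSMUSG00000033213, chr2:122636986-122641191) was the third marker given for these cells and was not used by the rule. The sequence just before the start of 3 of these genes is printed here, because the rule joins secondary granule genes, for which C/EBPε is known, with a gene of later cells. Each is written 5′ to 3′ on the strand of its gene, from RefSeq on GRCm38.p6, with TTNNGNAA in capitals, the core letters of a C/EBP-type site searched on both strands. All 5 genes matched an entry of that table. The *Ngp* stretch is chr9:110419558-110419746 on the plus strand, the *Ltf* stretch chr9:111019042-111019270 on the plus strand, and the *Retnlg* stretch chr16:48872358-48872607 on the plus strand.
Ngp: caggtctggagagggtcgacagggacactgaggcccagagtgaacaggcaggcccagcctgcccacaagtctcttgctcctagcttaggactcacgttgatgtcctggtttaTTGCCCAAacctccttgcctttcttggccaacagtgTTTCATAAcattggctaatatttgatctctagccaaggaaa
Ltf: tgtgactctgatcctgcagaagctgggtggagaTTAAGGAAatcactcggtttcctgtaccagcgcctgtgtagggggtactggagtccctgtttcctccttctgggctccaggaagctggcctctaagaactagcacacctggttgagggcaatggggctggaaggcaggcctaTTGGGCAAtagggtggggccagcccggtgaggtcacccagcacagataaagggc
Retnlg: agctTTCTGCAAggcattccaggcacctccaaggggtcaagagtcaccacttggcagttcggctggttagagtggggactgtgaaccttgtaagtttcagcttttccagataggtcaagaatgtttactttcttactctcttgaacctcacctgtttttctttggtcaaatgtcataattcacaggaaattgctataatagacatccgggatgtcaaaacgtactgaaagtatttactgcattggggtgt
The letters occur 2 times in the *Ngp* stretch, 2 times in the *Ltf* stretch and 1 time in the *Retnlg* stretch. Of 32851 promoter windows of 250 bases, 36.8% hold at least 1 match, so a match is common. *Camp* and *AA467197* had no match in their 250 bases. GAGGAAG, letters of a PU.1-type site searched on both strands, was found in 10.6% of the windows and in 0 of these 5.

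**Figure D1:**
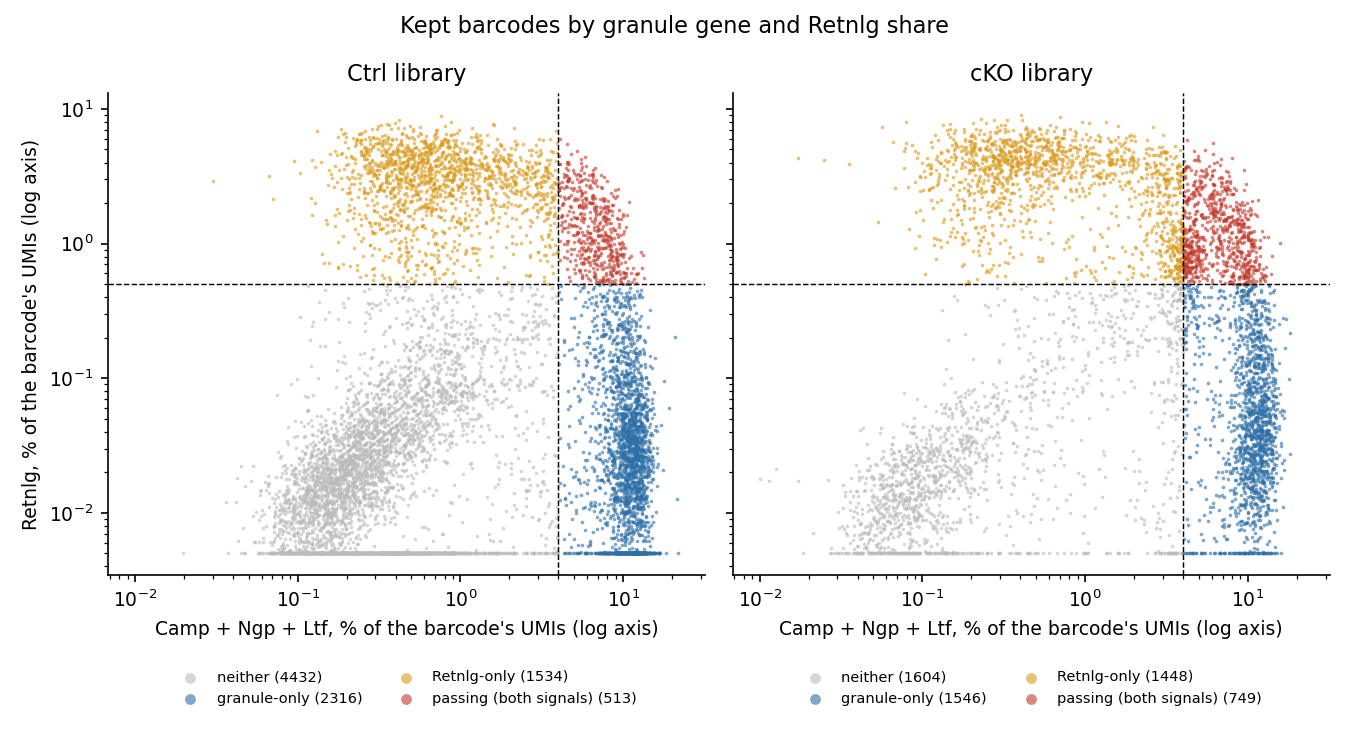
Each point is 1 kept barcode, with the summed share of Camp, Ngp and Ltf UMIs on the x axis and the share of Retnlg UMIs on the y axis, both in percent on log axes. Shares of Retnlg at or below the lowest drawn value are placed on the bottom row, dashed lines mark the thresholds of 4% and 0.5%, and the 513 Ctrl and 749 cKO passing neutrophils fill the upper right corner.

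The thresholds split the kept barcodes into 4 groups. Besides the passing neutrophils, 3862 barcodes met the granule threshold alone (granule-only), 2982 met the *Retnlg* threshold alone (Retnlg-only), and 6036 met neither. In passing neutrophils of the Ctrl library, *Camp* made up 3.10% of summed UMIs, *Ngp* 2.86%, *Ltf* 1.36% and *Retnlg* 1.47%. In those of the cKO library, the shares were 2.84% for *Camp*, 3.59% for *Ngp*, 1.38% for *Ltf* and 1.54% for *Retnlg*. In both libraries *Ltf* had its highest share in this group, against 1.13% in granule-only barcodes of either library and 0.156% (Ctrl) and 0.145% (cKO) in Retnlg-only barcodes, a description, since the rule used *Ltf*. The plot of granule and *Retnlg* shares shows no gap at either threshold. In the Ctrl library, 40 barcodes had 4% to 4.5% granule UMIs with *Retnlg* past its threshold, and 50 had 3.5% to 4%, with *Mmp8* at 4695 and 4144 CPM. In the cKO library, these numbers were 130 and 142, with *Mmp8* at 2633 and 3184 CPM. At the other threshold, 53 Ctrl and 82 cKO members had 0.5% to 0.6% *Retnlg*, and 38 and 75 granule-rich barcodes had 0.4% to 0.5%.

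Passing neutrophils lay between their neighbours in depth. The median was 3657 UMIs per barcode in the Ctrl library (quartiles 2517 and 5337) and 7268 in the cKO library (quartiles 2179 and 11860), a ratio of 1.99. The granule-only groups had medians of 6963 and 13414 UMIs and the Retnlg-only groups 2444.5 and 5406.5, so the cKO library was deeper in all 3 neutrophil groups. Passing neutrophils had a median of 1214 detected genes in Ctrl and 1613 in cKO, and after thinning each barcode to 1000 UMIs these were 452 and 391. The mitochondrial share was low in both, with medians of 0.516% and 0.541%. The libraries shared 2633 kept barcode sequences, of which 18 passed in both. Of the passing barcodes, 131 in Ctrl and 339 in cKO had a sequence also present in the other library.

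The cKO members fell into 2 ranges of depth. In that library, 195 members (26.0%) had fewer than 2500 UMIs and 554 had more, and 171 of the shallow ones (87.7%) lay in the corner of 3% to 6% granule UMIs and 0.4% to 1.5% *Retnlg*, against 38 of the deeper ones (6.86%). In the Ctrl library, 128 members (24.95%) had fewer than 2500 UMIs, and 31 of them (24.2%) lay in that corner. The shallow cKO members also differed in other genes. *Mpo*, for myeloperoxidase, was at 2416 CPM in them and 189 CPM in the deeper members, *Elane*, for elastase, at 3483 and 270 CPM, and *Mmp8*, for neutrophil collagenase, at 1212 and 3323 CPM. Ribosomal protein genes took 11.6% of their UMIs against 3.72%. Summed over all kept cKO barcodes, *Mpo* was at 3178 CPM, *Elane* at 4498 CPM, ribosomal protein genes at 14.8%, granule genes at 4.90% and *Retnlg* at 0.680%, and the shallow members, with 4.96% granule genes and 0.890% *Retnlg*, sat near this mixture of the whole library. Of the 1486 deposited cKO barcodes under 1000 UMIs, which were not kept, 28.9% lay in the same corner, against 3.82% in Ctrl. The part of RNA from outside the cell in these barcodes was not tested, and the shares and the main counts are given with and without barcodes under 2500 UMIs.

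**Figure D2:**
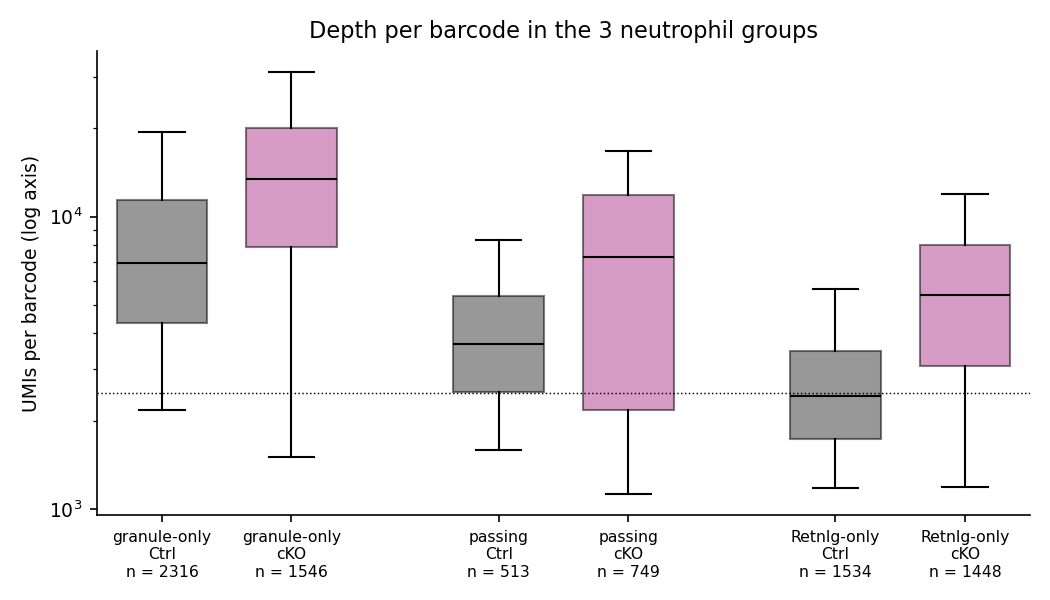
UMIs per barcode on a log axis for the granule-only, passing and Retnlg-only groups of each library. Boxes span the quartiles with the median as a line, whiskers reach the 5th and 95th percentiles, and the dotted line marks 2500 UMIs; the lower quartile of cKO passing neutrophils (2179 UMIs) lies below that line while their median is 7268.

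Background RNA and markers of other cells were set beside the members. Barcodes with at least 5 UMIs of B cell genes and none of *Mpo* and *Elane* numbered 44 in Ctrl and 4 in cKO. They had median granule shares of 0.493% and 0.221% and median *Retnlg* shares of 0.0346% and 0.0373%, at median depths of 2038 and 4111.5 UMIs, and none passed the rule, although 1 in Ctrl was over 4% for granule genes. Leaving out barcodes with *Mpo* or *Elane* favours barcodes with little RNA from other cells. Of barcodes with at least 5% haemoglobin UMIs, 96 in Ctrl and 13 in cKO, 2 in Ctrl were over 4% for granule genes and none passed the rule. B cell genes, all 10 detected in Ctrl and 6 of 10 in cKO members, summed to 809 CPM in Ctrl members and 314 CPM in cKO members, led by *Igkc* at 640 and 209 CPM. *Ms4a1*, *Ebf1* and *Pax5* were among those at 0 in the cKO members. Over all kept barcodes, the same list summed to 5026 and 4139 CPM. Red cell genes summed to 522 CPM in Ctrl and 105 CPM in cKO members, plasma cell genes to 693 and 125 CPM, monocyte genes to 115 and 58.0 CPM, and stem and progenitor genes to 63.3 and 24.1 CPM. Without members under 2500 UMIs, red cell genes summed to 483 and 61.6 CPM and plasma cell genes to 639 and 113 CPM. Each of these sums was higher in the Ctrl members, and their part in the results was not tested. No doublet caller was run, and the part of doublets of an earlier and a later neutrophil, which would also meet the rule, was not tested.

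The label of a state between immature and mature neutrophils was checked with genes outside the rule. *AA467197* was at 402 CPM in granule-only, 712 CPM in passing and 155 CPM in Retnlg-only barcodes of the Ctrl library, and at 567, 951 and 207 CPM in the cKO library. It was thus highest in the passing group in both libraries. Against granule-only barcodes whose cell cycle genes made up under 1% of UMIs (1092 of 2316 in Ctrl and 742 of 1546 in cKO), however, its log2 ratio was -0.16 in Ctrl and 0.01 in cKO. Its higher level was therefore seen against the mixed granule-only group, which holds dividing cells, and not against its non-dividing barcodes. Of the members, 481 in Ctrl (93.8%) and 649 in cKO (86.6%) had under 1% cell cycle UMIs. Summed over members, cell cycle genes made up 0.554% of UMIs in Ctrl and 0.362% in cKO. Members under 2500 UMIs had 0.444% in Ctrl and 0.927% in cKO, and the deeper ones 0.568% and 0.334%.

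Passing neutrophils made up 5.83% of kept barcodes in the Ctrl library (95% Clopper-Pearson interval 5.35 to 6.34) and 14.0% in the cKO library (13.1 to 14.97). The difference was 8.18 percentage points (95% Newcombe interval 7.14 to 9.24). All intervals here cover counting error only. Among barcodes with at least 2500 UMIs, the shares were 5.83% and 12.6%, a difference of 6.81 points (5.69 to 7.96). To leave out barcodes that met neither threshold, the share was also taken over the 3 neutrophil groups. There it was 11.8% in Ctrl and 20.0% in cKO, a difference of 8.25 points (6.66 to 9.86), and 11.7% and 17.8% with at least 2500 UMIs. Any neutrophil precursors under both thresholds are left out of this denominator too, and other cells over a threshold stay in it. The share of passing neutrophils was thus higher in the cKO library with each denominator and depth. A higher cKO share was not particular to this group. Retnlg-only barcodes were 17.4% of kept barcodes in Ctrl and 27.1% in cKO, and 11.3% and 26.4% with at least 2500 UMIs. Granule-only barcodes were 26.3% and 28.9%, and 32.5% and 32.1% with at least 2500 UMIs. The library deeper per barcode was also the one with the higher share of passing neutrophils. Library, depth and genotype cannot be told apart with 1 library each.

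Compared with granule-only barcodes, passing neutrophils had levels 2-fold or more higher for 9 of 12 gelatinase granule and late genes and 7 of 13 receptor genes. *Fpr1* is counted in both lists. Levels were 2-fold or more lower for 50 of 54 cell cycle genes and 5 of 10 primary granule genes. A gene was counted when its level differed by 2-fold or more, in the same direction in both libraries, among genes with at least 50 CPM in 1 of the groups compared in each library. Of 2276 such genes, 209 (9.18%) were higher and 305 (13.4%) lower in passing neutrophils, 22.6% in either direction. With median-of-ratios scaling, 280 were higher and 254 lower, and with at least 2500 UMIs per barcode 223 and 321. Against the non-dividing granule-only barcodes, 62 of 1986 genes (3.12%) were higher and 14 (0.705%) lower, 3.83% in either direction. Since the rule cut these groups from the same cells, the ratios are descriptions, and the counts for gene lists below are set against these shares only to give their scale.

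Gelatinase granule and late genes were 2-fold or more higher than in granule-only barcodes for 9 of 12 measured members. *Mmp8* was at 299 CPM in granule-only and 3623 CPM in passing neutrophils of Ctrl, and at 252 and 3221 CPM in cKO, a log2 ratio of 3.60 (3.55 to 3.65) and 3.68 (3.63 to 3.72). Over non-dividing granule-only barcodes the ratios of *Mmp8* were 1.98 and 2.38. *Mmp9*, which encodes gelatinase B, was at 532 and 4009 CPM in Ctrl and at 625 and 3503 CPM in cKO. In Retnlg-only barcodes *Mmp9* was at 3833 and 3440 CPM and *Mmp8* at 2752 and 3198 CPM, so neither was 2-fold apart from the passing level. None of the 12 genes was past 2-fold against Retnlg-only barcodes. Their median log2 ratio over granule-only barcodes was 1.60 in Ctrl and 1.37 in cKO, and over Retnlg-only barcodes 0.11 and 0.02. Over all genes measured in each library the medians were 0.08 and 0.01 against granule-only barcodes and -0.11 and -0.14 against Retnlg-only barcodes. *Mmp25*, *Slpi*, *Padi4*, *Fpr1*, *Fpr2*, *Adam8* and *Hdc* were the other 7. Beyond this list, *Tpm4*, *Bst1*, *Cyp4f18* and *Il1f9* were among the 10 genes with the highest ratios. *Tpm4*, for a tropomyosin, was at 13.5 and 146 CPM in Ctrl and at 12.0 and 126 CPM in cKO.

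Secondary granule genes outside the rule stood at the opposite side. Of 16, 2 were 2-fold or more lower than in granule-only barcodes and 9 were 2-fold or more higher than in Retnlg-only barcodes, 7 of them with at least 2500 UMIs per barcode. *Lcn2*, for lipocalin 2, was at 13900 CPM in granule-only, 12589 CPM in passing and 5086 CPM in Retnlg-only barcodes of Ctrl, and at 19754, 19056 and 8580 CPM in cKO. The passing group thus still had *Lcn2* near the granule-only level. *Chil3*, which encodes a chitinase-like protein, was instead at 9029, 3105 and 489 CPM in Ctrl and at 7911, 2303 and 311 CPM in cKO, lower at each step. *Cybb*, for the gp91phox subunit of the NADPH oxidase, was at 2065, 2236 and 648 CPM in Ctrl, and at 1907, 1926 and 503 CPM in cKO. The list's median log2 ratio was 0.14 and 0.12 against granule-only barcodes, and 1.06 and 1.13 against Retnlg-only barcodes, for Ctrl and cKO.

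Primary granule genes were lower than in granule-only barcodes for 5 of 10, namely *Elane*, *Prtn3*, *Prss57*, *Ms4a3* and *Fcnb*. *Fcnb*, for ficolin B, was at 1255 CPM in granule-only and 181 CPM in passing neutrophils of Ctrl and at 1186 and 138 CPM in cKO. *Elane* was at 1223 and 316 CPM in Ctrl and at 1269 and 426 CPM in cKO. The shallow cKO members described above add to that last value, which was 270 CPM without them. Over non-dividing granule-only barcodes the log2 ratio of *Elane* was -0.34 in Ctrl (401 CPM in the non-dividing barcodes) and 0.26 in cKO (356 CPM). The deeper cKO members alone were at 270 CPM, but the non-dividing barcodes were not split by depth. What sets the sign in cKO was therefore not tested. For *Fcnb* the ratio was -1.498 and -1.98. In Retnlg-only barcodes *Elane* was at 653 and 572 CPM, above the passing level. The whole primary granule list summed to 2528 CPM in passing and 3870 CPM in Retnlg-only barcodes of Ctrl and to 2912 and 3831 CPM in cKO. These Retnlg-only sums rest largely on 1 gene, *Srgn*, at 1039 CPM in Ctrl and 1459 CPM in cKO. In the 3 parts of passing neutrophils described below, *Srgn* was at 144, 199 and 201 CPM in Ctrl and at 104, 352 and 270 CPM in cKO. Of the 9 measured against Retnlg-only barcodes, 1 (*Serpinb1a*) was 2-fold or more higher and 1 (*Srgn*) lower. Of 54 cell cycle genes, 50 were 2-fold or more lower than in granule-only barcodes, with a median log2 ratio of -1.86 in Ctrl and -2.53 in cKO. *Top2a*, for topoisomerase II alpha, was at 517 and 126 CPM in Ctrl and at 370 and 48.8 CPM in cKO. Over the non-dividing granule-only barcodes, which were chosen for few cell cycle UMIs, its log2 ratio was 1.30 and 1.03. The genes with the lowest ratios to all granule-only barcodes were, beside *Fcnb*, the histone genes *Hist1h3c*, *Hist1h2ab*, *Hist1h2ae*, *Hist1h2ap*, *Hist1h1b* and *Hist1h3f*, and *Rrm2*, *Asf1b* and *Pclaf*. *Rrm2*, for a subunit of ribonucleotide reductase, was at 203 and 37.1 CPM in Ctrl and at 200.5 and 26.3 CPM in cKO. Of 9 measured genes of protein folding in the endoplasmic reticulum, 2 were lower, and the median log2 ratio of the 9 was -0.82 in Ctrl and -0.81 in cKO. Under median-of-ratios scaling 1 of them was lower, and with at least 2500 UMIs per barcode 3 were.

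Receptors for retention in and exit from the marrow differed in their patterns. Of 13, 7 were 2-fold or more higher than in granule-only barcodes (among them *Cxcr2*, *Csf3r*, *Selplg*, *Ccr1*, *C5ar1* and *Fpr1*), 4 were 2-fold or more lower than in Retnlg-only barcodes (among them *Cxcr2*, *Csf3r* and *Selplg*) and 1 was higher (*Ltb4r1*, a leukotriene B4 receptor). *Cxcr2* was at 83.0, 468 and 1112 CPM in granule-only, passing and Retnlg-only barcodes of Ctrl and at 122, 503 and 1283 CPM in cKO. *Csf3r*, the G-CSF receptor, was at 167, 498 and 1604 CPM in Ctrl and at 130, 334 and 1371 CPM in cKO. Both receptors thus stood between the levels of the neighbouring groups. *Cxcr4* was at 136, 213 and 236 CPM in Ctrl and at 129, 159 and 150 CPM in cKO, within 2-fold at each step. *Cd47*, a surface protein that restrains uptake by macrophages, was at 431, 409 and 265 CPM in Ctrl and at 419, 377 and 234 CPM in cKO, lower at each step.

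The comparison with Retnlg-only barcodes showed more genes lower than higher in passing neutrophils. Of 2140 genes measured against Retnlg-only barcodes, 54 (2.52%) were 2-fold or more higher in passing neutrophils and 130 (6.07%) lower, 8.6% in either direction, and with at least 2500 UMIs per barcode 47 and 114 were. *Il1b*, for interleukin 1 beta, was at 13.8 CPM in passing and 180 CPM in Retnlg-only barcodes of Ctrl, and at 11.1 and 355 CPM in cKO. *Ccl6*, a chemokine, was at 179 and 1593 CPM in Ctrl and at 92.3 and 1214 CPM in cKO. *Clec4d*, a C-type lectin receptor, was at 45.0 and 395 CPM in Ctrl and at 46.8 and 518 CPM in cKO. *Pla2g7*, *Jaml*, *Slc2a6* and *Tspan13* were also among the 10 lowest ratios. Of 12 inflammatory and NF-kB genes measured, these 3 were past 2-fold, and of 11 interferon-stimulated genes 4 were. Of 5 stefin genes, 4 were lower than in Retnlg-only barcodes, *Stfa2l1* among them at 216 and 932 CPM in Ctrl and at 232 and 1199 CPM in cKO. Under median-of-ratios scaling 3 of the 5 were lower, without *Stfa1*. The stefin genes are near-identical copies, as are *Cstdc4* and *Cstdc5*, so reads may be split between them and the values of single members are uncertain.

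Further genes were higher than in Retnlg-only barcodes. *Zmpste24*, which encodes the protease that processes prelamin A, was at 306, 145 and 20.8 CPM in granule-only, passing and Retnlg-only barcodes of Ctrl and at 291, 166 and 14.97 CPM in cKO. *Olfml2b*, an olfactomedin-like gene, was at 136, 130 and 24.8 CPM in Ctrl and at 107, 119 and 23.4 CPM in cKO. *Ly75*, which encodes the endocytic receptor DEC-205, was at 111, 135 and 31.2 CPM in Ctrl and at 101, 118 and 29.6 CPM in cKO. These last 2 genes had similar levels in granule-only and passing groups and several times less in the Retnlg-only group. Of the 10 highest ratios, *Trp53inp2*, *Abca13*, *Lbp* and *Cpne3* were others. Annexin genes were higher for 3 of 6, with *Anxa1*, which is also 1 of the 9 secondary granule genes counted as higher above, at 3719 CPM in passing and 1817 CPM in Retnlg-only barcodes of Ctrl, and at 5052 and 2329 CPM in cKO. With at least 2500 UMIs per barcode 2 of the 6 were, and *Anxa1* was not among them, with log2 ratios of 0.92 and 1.14.

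Transcription factors of the neutrophil line differed in both directions. *Cebpe* was at 620, 383 and 114 CPM in granule-only, passing and Retnlg-only barcodes of Ctrl and at 604, 275 and 67.0 CPM in cKO, lower at each step. *Mxd1*, a MAX partner, was at 160, 586 and 860 CPM in Ctrl and at 170, 481 and 783 CPM in cKO, higher at each step, and *Spi1*, for PU.1, at 309, 438 and 570 CPM in Ctrl and at 329, 459 and 664 CPM in cKO. Of 18 measured against granule-only barcodes, 4 were 2-fold or more higher (*Mxd1*, *Max*, *Junb* and *Jund*). Of 19 against Retnlg-only barcodes, 2 were higher (*Cebpe* and *Ets1*) and 3 lower (*Cebpb*, *Rara* and *Junb*), of which *Rara* alone was lower with at least 2500 UMIs per barcode. *Map4k4* was at 43.1, 239 and 163 CPM in Ctrl and at 33.0, 162 and 126 CPM in cKO, so of these 3 groups passing neutrophils had its highest level in both libraries. Its log2 ratio over granule-only barcodes was 2.47 (2.30 to 2.64) in Ctrl and 2.30 (2.15 to 2.44) in cKO, and over their non-dividing barcodes 1.24 and 1.29.

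**Figure D3:**
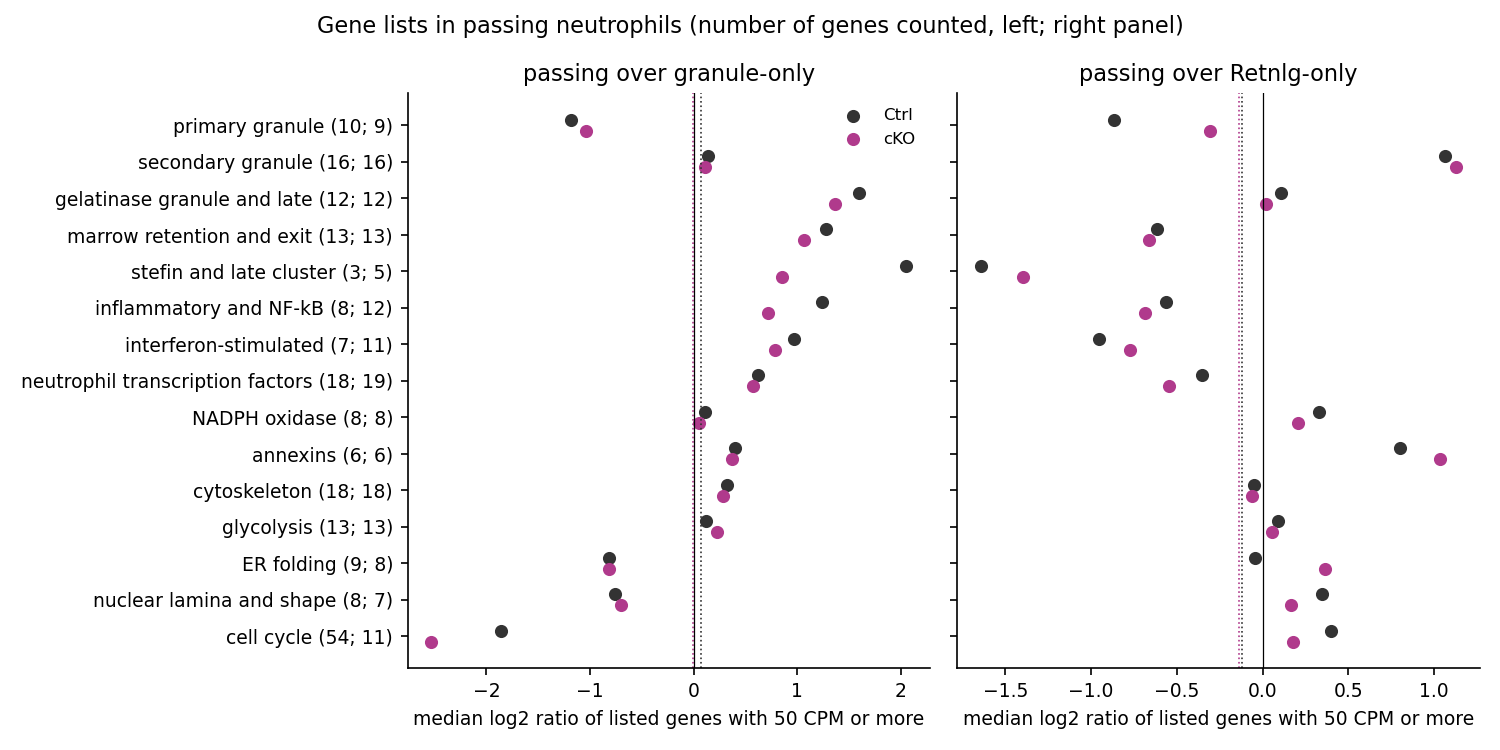
Median log2 ratio of each gene list in passing neutrophils over granule-only barcodes (left) and over Retnlg-only barcodes (right), in the Ctrl (black) and cKO (purple) libraries, with the number of genes counted on each side in brackets. Dotted lines are the medians over all genes counted; the gelatinase list is at 1.60 and 1.37 on the left and at 0.11 and 0.02 on the right, while the secondary granule list is at 0.14 and 0.12 on the left and 1.06 and 1.13 on the right.

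The lists that the study made for its immature (imNeu) and mature (mNeu) neutrophils were counted as well, but they were chosen on these libraries and are not independent evidence. Of 25 imNeu genes, 3 were lower than in granule-only barcodes and 15 higher than in Retnlg-only barcodes. Of 19 mNeu genes measured against granule-only barcodes, 18 were higher, and of 25 against Retnlg-only barcodes, 13 were lower. Of 18 cytoskeleton genes, 3 were higher than in granule-only barcodes (*Capg*, *Lcp1* and *Lsp1*). The median log2 ratio of 13 glycolysis genes was 0.12 in Ctrl and 0.23 in cKO against granule-only barcodes and 0.09 and 0.06 against Retnlg-only barcodes. Against granule-only barcodes, 4 cholesterol synthesis genes had medians of 0.93 and 0.75 with none past 2-fold, though 2 were higher under median-of-ratios scaling. Nuclear lamina and shape genes had medians of -0.76 and -0.70, with 2 of 8 lower, *Tmpo* and *Banf1*, and 1 under median-of-ratios scaling.

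The levels of passing neutrophils often lay between those of the neighbouring groups. Of 1865 genes measured in all 3 groups of both libraries, 937 (50.2%) lay between both neighbours in each library. Levels above both neighbours by at least 0.5 on the log2 scale were seen for 25 genes (1.34%), and below both for 2 genes (0.107%), *Lmnb1* (lamin B1) and *Erp29*. *Ifitm6*, a gene of the interferon-induced transmembrane family, was at 1868, 3357 and 1613 CPM in granule-only, passing and Retnlg-only barcodes of Ctrl and at 3820, 6781 and 3881 CPM in cKO. *Plbd1*, for a phospholipase B-like protein of granules, was at 465, 923 and 479 CPM in Ctrl and at 435, 861 and 423 CPM in cKO. *Syne1*, for the nuclear envelope protein nesprin 1, was at 460, 764 and 350 CPM in Ctrl and at 320, 481 and 231 CPM in cKO. *AA467197* was also among the 25, as were *Arrb2*, *Lims1*, *Tcp11l2*, *Golim4*, *Trp53inp2*, *Fmo5*, *Plxnc1* and *Slc25a24*. Against non-dividing granule-only barcodes, 5 of the 25 were still above both neighbours, namely *Cd55*, *1700047M11Rik*, *Chil5*, *Aph1b* and *Acvrl1*, and 0 of the 2 were below. *Cd55*, for decay-accelerating factor, was at 14.7, 101 and 48.9 CPM in Ctrl and at 17.1, 87.3 and 43.2 CPM in cKO. *Acvrl1*, for the receptor ALK1, was at 32.6, 209 and 96.4 CPM in Ctrl and at 66.2, 300 and 161 CPM in cKO.

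Passing neutrophils also varied among themselves. They were ordered in each library by the ratio of *Retnlg* to granule gene UMIs and cut into 3 parts of equal size, 171 members each in Ctrl and 250, 250 and 249 in cKO. Median *Retnlg* shares were 0.672%, 1.16% and 2.33% in parts 1, 2 and 3 of Ctrl and 0.688%, 0.976% and 2.18% in cKO, which the ordering fixes. Of 1066 genes, 6 (0.563%) were 2-fold or more higher in part 3 than in part 1 in both libraries, and 10 (0.938%) lower. *Chil3* was at 4889, 2774 and 1384 CPM in parts 1, 2 and 3 of Ctrl and at 3418, 2387 and 966 CPM in cKO. *Zmpste24* was at 195, 184 and 48.7 CPM in Ctrl and at 260, 167 and 57.2 CPM in cKO. *Asprv1*, for an aspartic protease, went the other way, at 58.5, 120 and 190 CPM in Ctrl and at 216, 377 and 592 CPM in cKO. *Mmp8* was at 3015, 3576 and 4374 CPM in Ctrl and at 2673, 2904 and 4071 CPM in cKO, higher in part 3 without reaching 2-fold. *AA467197* was at 837, 699 and 582 CPM in Ctrl and at 1126, 897 and 788 CPM in cKO, highest in the part nearest to granule-only barcodes. Part 2 of cKO held 124 of the members under 2500 UMIs and had a median depth of 2645 UMIs, against 9453 and 8112 in parts 1 and 3. Without members under 2500 UMIs, 8 of 1044 genes (0.766%) were higher and 14 (1.34%) lower, which included all 6 and 9 of the 10 named by the first count.

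**Figure D4:**
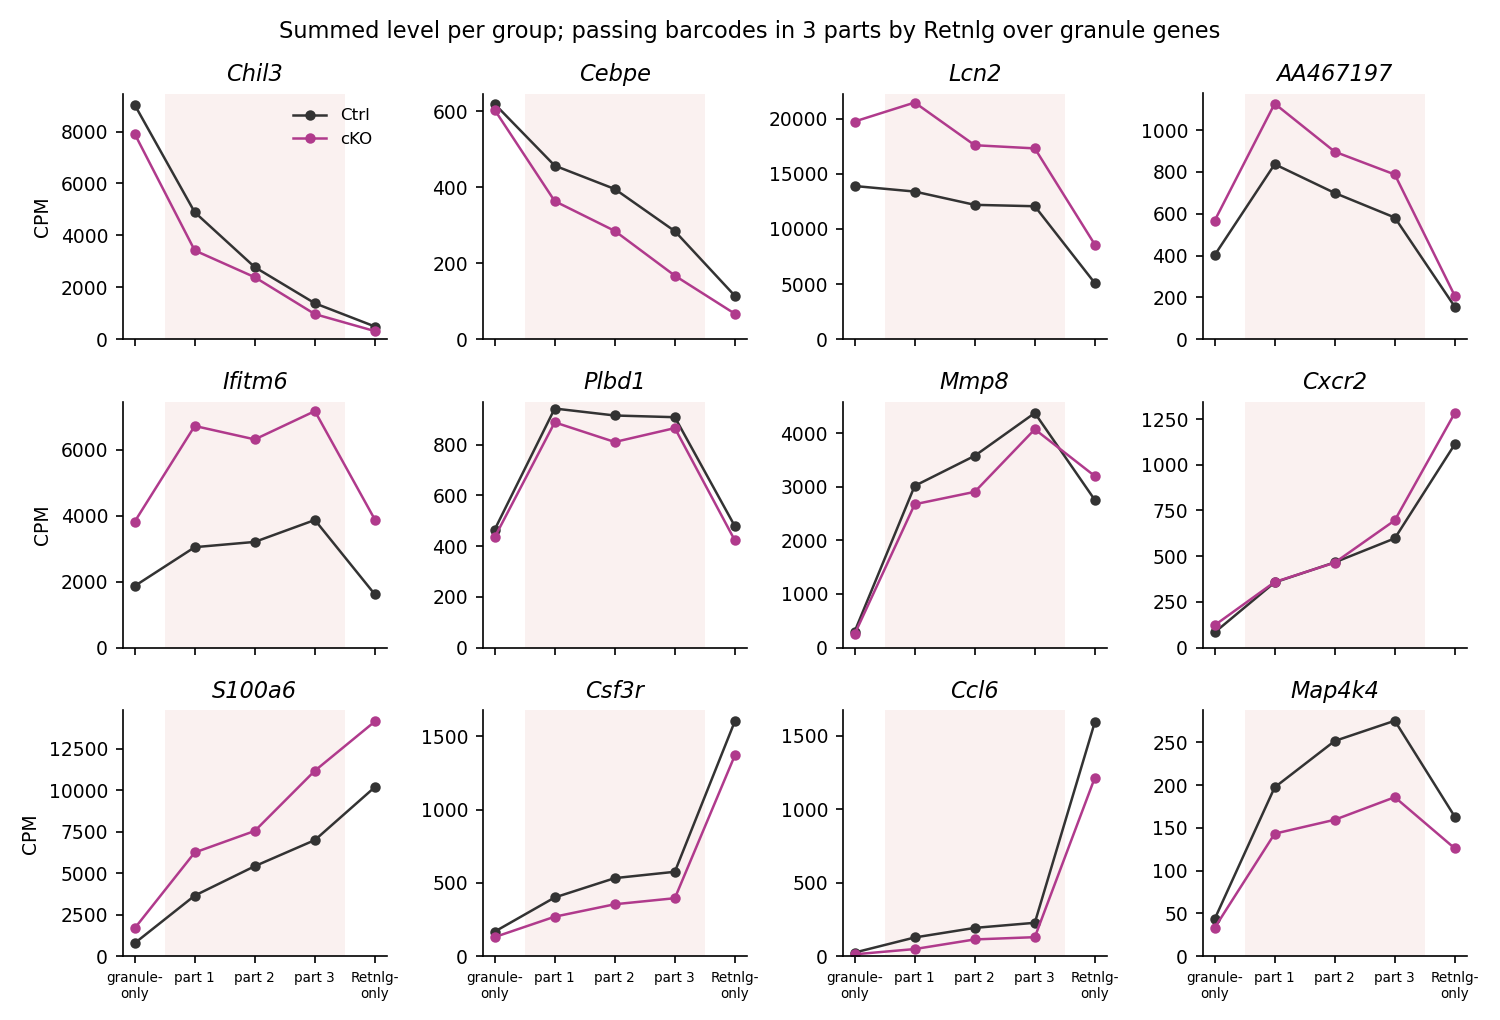
CPM of 12 genes (y axis, linear from 0) in granule-only barcodes, in parts 1 to 3 of the passing neutrophils (shaded) and in Retnlg-only barcodes, with Ctrl in black and cKO in purple. Each point is a sum over the barcodes of 1 library, without replicates; Chil3 is lower and Cxcr2 higher at each step in both libraries, and AA467197 peaks in part 1.

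Between the libraries, few genes differed by 2-fold or more in passing neutrophils, and how they split depended on the scaling. Of 2387 genes with at least 50 CPM in 1 library, 15 (0.628%) were higher and 75 (3.14%) lower in cKO, 3.77% in either direction. With median-of-ratios scaling, 41 were higher and 12 lower, and with the mean of per-barcode proportions 49 were higher and 67 lower. The median log2 ratio of all these genes was -0.32 by CPM and 0.10 by median-of-ratios, and the ratios of single genes are read relative to it. With at least 2500 UMIs per barcode, 14 were higher and 105 lower. Lower genes thus outnumbered higher ones by CPM without the shallow members as well.

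The genes higher in cKO included 3 of the interferon-induced transmembrane family. *Ifitm1* was at 70.7 CPM in Ctrl and 365 CPM in cKO, a log2 ratio of 2.37 (2.12 to 2.62). *Ifitm2* was at 493 and 1434 CPM, a log2 ratio of 1.54 (1.45 to 1.64), and *Ifitm6* at 3357 and 6781 CPM, a log2 ratio of 1.01 (0.98 to 1.05). These genes are close relatives in sequence, so values of single members are uncertain. Of 8 interferon-stimulated genes measured, *Ifitm1* and *Ifitm2* were past 2-fold by CPM, and *Ifitm3* too by median-of-ratios. Among the stefin genes, 2 of 5 were higher, *Stfa2* at 10.4 and 128 CPM with a log2 ratio of 3.62 (3.00 to 4.33), and *Stfa3* at 25.7 and 76.4 CPM. *Asprv1* was at 120 and 388 CPM, *Wfdc17*, a gene of the whey acidic protein family, at 49.4 and 207 CPM, *Upp1*, for uridine phosphorylase, at 39.1 and 127 CPM, and *Tspo*, a mitochondrial outer membrane protein, at 360 and 815 CPM. The others were *Map1lc3a*, *Fabp5*, *Fdps*, *Prok2*, *Ceacam10* and *Cstdc5*. The neighbouring groups showed the same direction. In Retnlg-only barcodes 13 of the 15 genes had enough counts, and all 13 were higher in cKO, 12 of them by 2-fold or more. In granule-only barcodes 6 had enough counts and all 6 were higher, 4 by 2-fold or more, and in barcodes of neither threshold all 7 measured were higher, 4 by 2-fold or more. The median log2 ratio by CPM over all genes measured was -0.29 in Retnlg-only and -0.23 in granule-only barcodes. The share of all genes higher in these groups is not given here, so these counts are a description.

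Of the 75 genes lower in cKO by CPM, 12 were past 2-fold under median-of-ratios scaling. *Thbs1*, for thrombospondin 1, was at 18.0, 132 and 12.5 CPM in granule-only, passing and Retnlg-only barcodes of Ctrl and at 1.25, 7.0 and 0.124 CPM in cKO, so of these 3 groups it was highest in passing neutrophils in both libraries. The log2 ratio of cKO over Ctrl in passing neutrophils was -4.24 (-4.77 to -3.75), from 38 UMIs in cKO and 268 in Ctrl. In barcodes of neither threshold *Thbs1* was at 7.38 CPM in Ctrl and 0.688 CPM in cKO, a log2 ratio of -3.42. *Olfm4*, for olfactomedin 4 of secondary granules, was at 404 and 176 CPM, a log2 ratio of -1.20 (-1.33 to -1.06). *Lrmp* was at 247 and 74.4 CPM and *Jund*, an AP-1 subunit, at 140 and 56.6 CPM. *mt-Nd2*, for a mitochondrial subunit of complex I, was at 179 and 71.1 CPM and *Spn*, for CD43, at 109 and 44.4 CPM. *Xist* was at 290 and 163 CPM, and *Ddx3y*, *Eif2s3y*, *Kdm5d* and *Uty* of the Y chromosome had 0 UMIs in members of both libraries. *Malat1*, a nuclear RNA, was at 3038 and 1258 CPM, and *Gm42418* and *Lars2*, which the nuclear RNA list also holds, were past 2-fold by CPM as well. Under median-of-ratios scaling none of the 7 nuclear RNA genes measured was past 2-fold, nor were *Olfm4*, with a log2 ratio of -0.77, and *Jund*, with -0.88. *Igha*, the heavy chain of immunoglobulin A, was at 525 and 21.0 CPM, *Igkc* at 640 and 209 CPM, *Hba-a2* at 189 and 21.0 CPM and *Hbb-bs* at 134 and 18.1 CPM. These are genes of the plasma, B and red cell lists whose sums are given above, and the part of RNA from such cells was not tested. Of the 75 lower genes, 61 had enough counts in Retnlg-only barcodes, and all 61 were lower there too, 31 by 2-fold or more. In granule-only barcodes 53 of 57 were lower, 11 by 2-fold or more, and in barcodes of neither threshold 55 of 58, 7 by 2-fold or more. Over all genes measured, the median log2 ratio by CPM was already -0.29 in Retnlg-only and -0.23 in granule-only barcodes. The share of all genes lower in these groups is not given here, so these counts are a description.

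**Figure D5:**
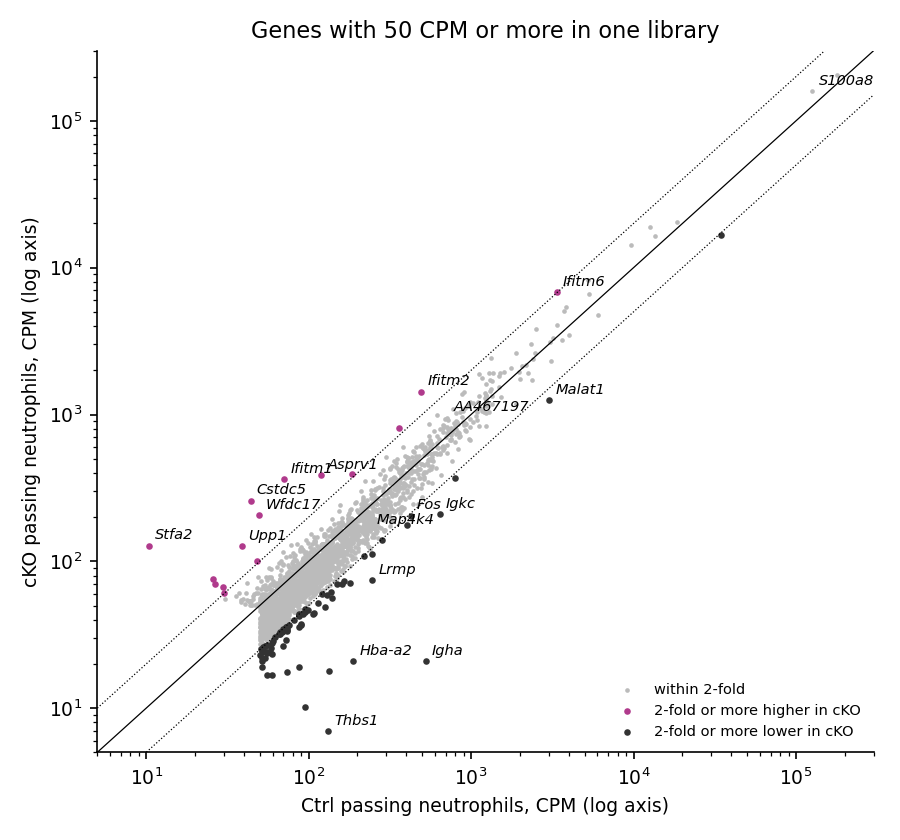
CPM of each gene with at least 50 CPM in 1 library, in Ctrl (x axis) and cKO (y axis) passing neutrophils, both on log axes. The solid line marks equal levels and the dotted lines 2-fold; 15 genes lie above the upper and 75 below the lower dotted line, with Stfa2 at 10.4 and 128 CPM and Thbs1 at 132 and 7.0 CPM.

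Since 3.77% of all genes were past 2-fold between the libraries, a count of 0 in a short list is near that share. By CPM it was 0 of 12 gelatinase granule and late genes, of 13 receptors and of 9 primary granule genes. Of 16 genes on the secondary granule list it was 2, *Ifitm6* (higher) and *Olfm4* (lower). *Mmp8* was at 3623 CPM in Ctrl and 3221 CPM in cKO, a log2 ratio of -0.17 (-0.21 to -0.13). The median of the gelatinase granule and late list was -0.17 by CPM but 0.25 by median-of-ratios. *Lcn2* was at 12589 and 19056 CPM, with a log2 ratio of 0.60 (0.58 to 0.62) by CPM and 1.02 by median-of-ratios. *S100a6*, a calcium-binding protein, was at 5274 and 8303 CPM, a log2 ratio of 0.65 (0.62 to 0.69) by CPM and 1.08 by median-of-ratios. *Prtn3* of the primary granule list was likewise past 2-fold under median-of-ratios scaling alone, at 1.10, against 0.68 by CPM and, with at least 2500 UMIs per barcode, 0.13. *AA467197* had a log2 ratio of 0.42 (0.33 to 0.50), *Csf3r* of -0.57 (-0.69 to -0.46) and *Cebpe* of -0.48 (-0.60 to -0.35). The 19 neutrophil transcription factors measured had a median of -0.46 by CPM, against -0.32 over all genes measured. Of them, *Jund* and *Fos* were past 2-fold (*Jund* and *Myb* with at least 2500 UMIs per barcode). By median-of-ratios the median of these factors was -0.03, and none was past 2-fold. Of 16 cell cycle genes measured, 5 were lower by CPM, among them *Top2a* and *Mki67*, and 0 by median-of-ratios, with medians of -0.56 and -0.14. With at least 2500 UMIs per barcode, 7 of 18 were lower by CPM, with a median of -0.85.

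Few kinase and survival genes tied to the study's question had at least 50 CPM, and their levels are given as values. *Map4k2*, a relative of *Map4k4*, was at 261 CPM in Ctrl and 161 CPM in cKO. *Stat5b*, a transcription factor downstream of cytokine receptors, was at 78.6 and 49.0 CPM, a log2 ratio of -0.68 (-0.97 to -0.39). *Stat5a* had 26 and 47 UMIs and a log2 ratio of -0.57 (-1.29 to 0.18). This wide interval covers counting error only, and no difference between the libraries was tested. The median of the 4 genes of this list with at least 50 CPM was -0.62 by CPM and -0.20 by median-of-ratios. *Mcl1*, the survival factor of the BCL2 family, was at 298 and 253 CPM and was the 1 gene of that family with at least 50 CPM.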

How the data were processed

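Bone marrow of 1 Ctrl and 1 cKO library was measured by droplet-based 3′ single-cell RNA sequencing. The authors deposited raw UMI counts per gene and barcode for called cells, and per the submitters' processing notes used Cell Ranger 5.0.0 with mm10. The Ctrl library held 71527701 UMIs in 10220 barcodes and the cKO library 64393950 in 6872, over 32285 genes. No per-sample column was left out (0 unused), and the authors' quality filters, given in the methods, had not been applied to these files.

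Barcodes were kept and grouped by the thresholds in the report, of which the floor of 1000 UMIs is not the authors'. UMIs were summed per group and library, without the 4 rule genes in the total. Log2 ratios carry 95% exact binomial intervals, shares Clopper-Pearson intervals and differences of shares Newcombe intervals. Called means 2-fold or more with at least 50 CPM. Genes whose symbol occurs on more than 1 identifier, such as *Aldoa*, were left out of lists. The members and lists were chosen with earlier results of these data known. Genes named were the 10 highest and 10 lowest ratios per comparison with at least 100 CPM, up to 15 outside both neighbours, 2 to 4 abundant genes per list and fixed genes, and the rest were chosen after their values were seen. Levels were not compared between genes.

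Alternatives were other thresholds of the rule, floors of 500, 2000 and 2500 UMIs (the last chosen after seeing the data), a mitochondrial limit of 10%, dropping the deepest 5% of barcodes, floors of 10 and 200 CPM, other denominators and scalings, and non-dividing granule-only barcodes. The calculations were tested on simulated data. Python 3.11.15, numpy 2.4.6, scipy 1.17.1, pandas 2.3.3 and matplotlib 3.10.9 were used. Gene coordinates come from GENCODE vM21 and promoter stretches from a RefSeq table of GRCm38.p6, with annotated exons removed.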

Additional observations from a re-analysis of the deposited data

Results flagged for a closer look

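In 3 results the libraries or groups moved in opposite directions under the same comparison, and none of these differences was tested. *Lrmp*, which encodes a membrane protein of the endoplasmic reticulum, had a log2 ratio of passing neutrophils over granule-only barcodes of 0.27 in Ctrl and -0.35 in cKO. *Igkc*, the kappa light chain of immunoglobulin, had a log2 ratio of passing neutrophils over Retnlg-only barcodes of -2.05 in Ctrl and 0.24 in cKO. In Retnlg-only barcodes the B cell genes summed to 3803 CPM in Ctrl and 259 CPM in cKO, with *Igkc* at 2657 and 177 CPM. The part of B cell RNA in the Ctrl Retnlg-only group was not tested. The log2 ratio of cKO over Ctrl for *Igkc* was -1.61 in passing neutrophils and 0.19 in granule-only barcodes.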

How the results depend on the processing

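No paired analysis was possible because each condition had 1 library and no result comes from a test. The cKO share stayed above the Ctrl share in every alternative run. The balance of higher and lower genes turned in some alternatives. Between the libraries it was 15 higher and 75 lower, but 41 and 12 with median-of-ratios scaling. Against granule-only barcodes it was 209 and 305, but 280 and 254 with that scaling and 62 and 14 against the non-dividing barcodes. Against 5.83% of kept barcodes, the Ctrl share was 7.32% with *Retnlg* at 0.25% or more, 3.502% with 1% or more, 5.31% with a floor of 500 UMIs, 7.16% and 3.67% with granule genes at 3% and 6% or more, and 11.8% of the 3 neutrophil groups. Against 14.0%, the cKO share was 17.9% and 7.63% with *Retnlg* at 0.25% and 1% or more, 18.6% and 7.95% with granule genes at 3% and 6% or more, 12.6% with floors of 2000 and 2500 UMIs, and 20.0% of the 3 neutrophil groups. The difference of 8.18 points became 10.6 and 4.13 with the 2 *Retnlg* thresholds, 11.4 and 4.28 with the 2 granule thresholds, and 6.44 and 6.81 with floors of 2000 and 2500 UMIs. The 90 genes past 2-fold between the libraries became 544 with a floor of 10 CPM, 19 with a floor of 200 CPM, 173 with granule genes at 6% or more and 53 with median-of-ratios scaling. The 184 genes against Retnlg-only barcodes became 390 and 54 with the 2 CPM floors. The 514 genes against granule-only barcodes became 1335 and 143 with those floors, 251 with the mean of per-barcode proportions and 76 against non-dividing granule-only barcodes, of which 61 of the 62 higher and 6 of the 14 lower genes were among the 514. The floor in CPM sets how many genes are tested, and the cause of the other changes was not tested. Depth limits low genes: *Stat5a* rests on 26 and 47 UMIs. With 1 library per condition, library, depth and genotype cannot be told apart.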
